A study of Rattus norvegicus with 18 samples.

Results

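The 100 most abundant nuclear transcripts of vehicle-treated rat hepatocytes were examined in 18 libraries. They were chosen by ranking every listed transcript on its mean TPM over the 3 Control libraries, after 13 mitochondrial mRNAs had been removed, and taking the first 100 of the remaining 30884. TPM is a level corrected for transcript length that sums to 1000000 in each library. The word nuclear means here only that those 13 were removed. Members are called by their rank in Control, so that rank 1 is the most abundant. The order of the ranks and the Control levels follow from this choice and are given as a description. All 100 passed the filter on low counts, with 808 or more estimated counts in every library.

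The cells were primary rat hepatocytes, the liver's parenchymal cells taken into culture, and all groups received 0.1% DMSO for 6 h. The groups were Control (DMSO alone, 3 libraries), APAP (acetaminophen, 3 mM, 4 libraries), CCl4 (carbon tetrachloride, 3 libraries), TCDD (2,3,7,8-tetrachlorodibenzo-p-dioxin, 1 nM, 4 libraries) and TCE (trichloroethylene, 1 mM, 4 libraries). No source used here gives the dose of CCl4, and the protocol that calls the doses sub-toxic does not name it. No label states that the replicates of a group were separate animals or cultures, and p-values therefore cover only the spread between libraries, which may be technical.

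Hepatocytes secrete most plasma proteins, carry out much of the body's intermediary metabolism and convert drugs and solvents with cytochrome P450 enzymes. A small set of mRNAs therefore fills much of a liver cell's mRNA pool, and a level given as a share of that pool moves when other abundant mRNAs move. APAP and CCl4 become reactive in hepatocytes through P450 enzymes, whereas TCDD acts through the aryl hydrocarbon receptor. The deposited identifiers carry no gene names and none matched the gene table used for names. Which members are plasma proteins, enzymes or ribosomal proteins is therefore not reported, and the hepatocyte label could not be checked against marker genes. For the same reason no sequence is shown.

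Total estimated counts were 9280367 to 11479466 in 17 libraries and 6563387 in TCDD replicate 1. That library also stood apart in other ways. It had counts for 27416 transcripts, against 19151 to 19801 in the others, and mitochondrial mRNAs held 8.99% of its TPM, against 2.35 to 2.69% in the other TCDD libraries. Results for TCDD are given with and without it.

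In Control the members ran from 37033 TPM at rank 1 to 1292 TPM at rank 100, and a few of them held much of the pool. Rank 1 alone made up 3.70% of Control TPM, the first 3 made up 8.94%, the first 10 made up 17.7%, and all 100 made up 42.4%. The cutoff fell on a smooth slope. Rank 99 (ENSRNOT00000027073.6) was at 1296 TPM and rank 100 (ENSRNOT00000081747.1) at 1292, while the next transcripts outside, ENSRNOT00000005471.7 and ENSRNOT00000086590.1, were at 1284 and 1283. The Control libraries of rank 99 read 1269, 1207 and 1411 TPM and those of the first transcript outside 1211, 1188 and 1454, so their ranges overlapped.

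**Figure D1:**
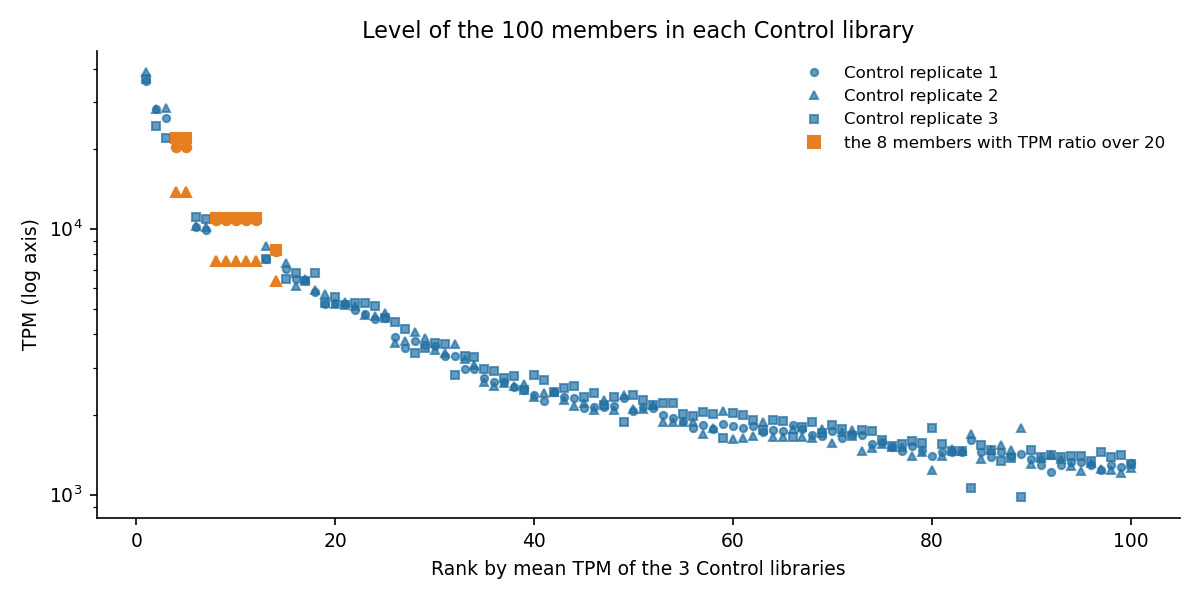
TPM of the 100 members in the Control libraries, by rank (log axis). Levels fall steeply over the first ranks, from 37033 TPM at rank 1, and flatten towards 1292 TPM at rank 100.

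The members were short transcripts. Their median length was 709.5 bases (267 to 2324), against 2156 bases for the 16473 transcripts tested. Of the members, 66 were 1000 bases or shorter and 5 were over 2000 bases, while among all tested transcripts 13.2% and 54.9% were. Ranking on CPM, counts scaled to the library total without a correction for length, kept 57 of the 100. Estimated counts were whole numbers in every library for 25 members, against 39.2% of the tested transcripts. The other 75 share some reads with similar transcripts, and counts can shift between such transcripts. Ranks 4 and 5 (666 bases each) had identical values in all libraries, as did ranks 8 to 12 (411 bases each), so the members hold 95 distinct profiles.

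Most members stayed among the most abundant transcripts in every group. Of the 100, 88 were still among the first 100 with APAP, 95 with CCl4, 91 with TCDD (87 without replicate 1) and 89 with TCE. Ranked on a single Control library, 95 to 98 were. For 88 members the highest TPM over the 18 libraries was under 3 times the lowest, and the median ratio was 1.66. Rank 1 led in 17 of 18 libraries and was second to rank 3 in TCDD replicate 4.

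The share of all TPM held by the members was 42.4 ± 1.63% in Control (SD, n = 3), 45.1 ± 3.42% with APAP (n = 4), 43.4 ± 2.02% with CCl4 (n = 3), 37.0 ± 1.85% with TCDD (n = 4) and 36.4 ± 0.169% with TCE (n = 4). Every TCE library, at 36.3 to 36.7%, lay below every Control library, at 40.6 to 43.8%. The APAP libraries, at 41.5 to 48.7%, overlapped Control. Without its replicate 1, TCDD stood at 36.6 ± 2.05% (n = 3). No test is given for this share, because it sums over members chosen by their level.

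Within that share, 8 members varied far more than the rest. They were ranks 4, 5, 8 to 12 and 14, all 666 bases or shorter, and they were singled out after their values were seen, because their highest TPM was over 20 times their lowest. The ratio was 33.8 for ranks 4 and 5, 26.6 for ranks 8 to 12 and 23.4 for rank 14, and it was 5.20 for the next member, rank 3. With the identical members counted once, the 8 amount to 3 profiles.

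The member at rank 4 (ENSRNOT00000077306.1, identical to rank 5, ENSRNOT00000087247.1) read 20253, 13742 and 21882 TPM in Control and 18722, 23228 and 12760 TPM with CCl4. With APAP it read 8247, 3172, 17019 and 22156 TPM in replicates 1 to 4. With TCDD it read 14738 in replicate 1 and 1994, 688 and 2186 in the others, and with TCE 2599, 1745, 2148 and 2230. All TCE libraries and 3 of the 4 TCDD libraries thus lay below every Control, CCl4 and APAP library. APAP ran from 3172 TPM, below every Control and CCl4 library, to 22156 TPM. TCDD replicate 1 fell within the Control range.

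Rank 8 (411 bases) showed the same split at lower levels. It read 10828, 7541 and 10997 TPM in Control, 4428, 2008, 9864 and 12659 with APAP, and 10137, 13144 and 7799 with CCl4. With TCDD it read 9096, 1287, 493 and 1133, and with TCE 1559, 1092, 1322 and 1385. Rank 14 read 6356 to 8335 TPM in Control and 1251 to 1787 TPM with TCE. Its TCDD libraries were again split, with 8333 TPM in replicate 1 and 467 to 1519 TPM in the other 3.

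Together the 8 held 9.38 ± 1.94% of TPM in Control (SD, n = 3), 9.71 ± 2.55% with CCl4 (n = 3) and 1.25 ± 0.188% with TCE (n = 4). With APAP they held 6.80 ± 4.55% (n = 4), from 1.86 to 11.9% between libraries. With TCDD they held 8.33% in replicate 1 and 0.431 to 1.19% in the other 3. In shares of estimated counts, which are not corrected for length, the 8 made up 2.69% in Control and 0.346% with TCE, so the same split was present before length correction. Among the groups, the rank of the rank 4 member was 57 with TCE and 83 with TCDD without replicate 1.

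**Figure D2:**
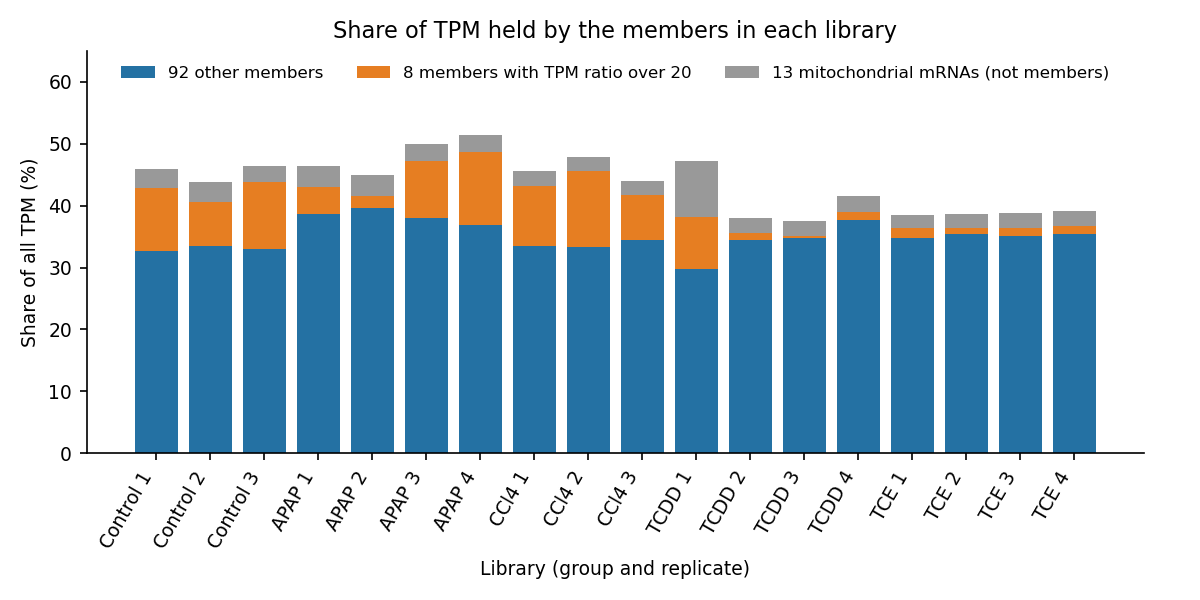
Percent of each library's TPM held by the 8 members, the other 92 members and the 13 mitochondrial mRNAs, for the 18 libraries by group. The 8 members range from 0.431% to 12.3%, whereas the other 92 stay between 29.8% and 39.6%.

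In the fit of all 18 libraries (edgeR's quasi-likelihood test, p adjusted by Benjamini-Hochberg over all tested transcripts), the 8 were higher with APAP than with TCE by log2 differences of 2.75 to 3.13, and all 8 passed, with adjusted p from 0.00940 to 0.0104. Ranks 4 and 5 differed most, by 3.13 ± 0.89 (SE). The 8 were chosen by their spread over these same 18 libraries, so tests of them describe it and give no separate support. They hold 3 distinct profiles, so a call of all 8 counts the same values repeatedly. Against Control the TCE log2 fold changes were -3.21 to -2.51 and none of the 8 passed (adjusted p 0.0948 to 0.135). DESeq2 on the same libraries called 7 of the 8 for TCE (adjusted p 0.0150 to 0.0524) and none for TCDD (0.237 to 0.425). The edgeR call changed when TCDD replicate 1 was left out. Without that library the TCE log2 fold changes were the same and all 8 passed (adjusted p 0.0109 to 0.0168). Those of TCDD were then -3.62 to -2.84, and all 8 passed as well (0.0276 to 0.0303). With all libraries, TCDD against Control gave -1.66 to -1.13 (adjusted p 0.254 to 0.404).

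Between compounds, leaving out TCDD replicate 1 gave higher levels of the 8 with CCl4 than with TCE, by log2 differences of 2.80 to 3.26 (adjusted p 0.00528 to 0.00915), and than with TCDD, by 3.13 to 3.67 (0.00670 to 0.0129). With all libraries edgeR called none of the 8 in either comparison (adjusted p 0.148 to 0.165 and 0.340 to 0.390), while DESeq2 called all 8 for CCl4 against TCE (0.0179 to 0.0364) and none for CCl4 against TCDD (0.327 to 0.401). A fit of the compared groups alone called all 8 for TCE against Control and for CCl4 against TCE.

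Since all shares sum to the same total, the other 92 members were also taken as a share of the TPM outside the 8 and the mitochondrial mRNAs. They held 37.7 ± 0.410% of it in Control (SD, n = 3), 42.5 ± 0.722% with APAP (n = 4), 38.4 ± 0.533% with CCl4 (n = 3), 36.7 ± 1.73% with TCDD (n = 4) and 36.5 ± 0.244% with TCE (n = 4). APAP was thus the group with the highest share on this measure, and it had been the group with the widest spread when the 8 were included. Their share of all TPM was 32.6 to 33.5% in Control and 36.9 to 39.6% with APAP, without overlap. Ranks 2 and 3, which are among the 92, held 5.24% of all TPM in Control and 2.46% with TCE. Outside the 8 and the mitochondrial mRNAs, 68 of the 92 stood above their Control level with TCE. The lower summed share with TCE is therefore not a fall of most members.

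Rank 1 (ENSRNOT00000003921.4, 2069 bases, with whole-number counts) was highest with APAP and, apart from 1 TCDD library, alike in the other groups. It read 35792, 38854 and 36453 TPM in Control, and 52947, 52996, 48846 and 45474 TPM with APAP. It read 36346, 35129 and 36030 TPM with CCl4, 25562, 42352, 41770 and 35998 with TCDD, and 37702, 40594, 41467 and 40473 with TCE. All APAP libraries lay above all others. The log2 differences of APAP were 0.86 ± 0.06 (SE) from Control (edgeR adjusted p = 1.68e-08), 0.82 from CCl4 (3.03e-08), 0.88 from TCDD (3.84e-09) and 0.83 from TCE (6.69e-09).

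Rank 2 (ENSRNOT00000074325.1, 1140 bases, with whole-number counts) was low in TPM in the TCDD and TCE libraries. It read 28191, 28137 and 24267 TPM in Control, 15766, 19464, 26304 and 25229 with APAP, and 23581, 28555 and 22292 with CCl4. With TCDD it read 19472, 9806, 10793 and 13014, and with TCE 11276, 11166, 11828 and 18286. In TPM all TCDD and TCE libraries lay below all Control and CCl4 libraries, and overlapped APAP. On the TMM scale TCDD replicate 1 was at -0.07 log2 from the Control mean, within the CCl4 range of -0.24 to 0.25. It was higher with APAP than with TCE by 1.27 ± 0.29 log2 (SE; edgeR adjusted p = 0.00199) and than with TCDD by 1.05 ± 0.29 (0.00740). Against Control, TCE gave -1.13 (adjusted p = 0.0795) and TCDD -0.91 (0.0914), neither of which passed.

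Rank 3 (ENSRNOT00000079005.1, 798 bases) varied most within TCDD. It read 25999, 28563 and 21981 TPM in Control, 23861, 27152, 33871 and 29277 with APAP, and 27161, 33176 and 32852 with CCl4. With TCE it read 11824, 10933, 9562 and 13709, below every library of those 3 groups. With TCDD it read 23325, 9763, 9094 and 47279, so that group held both the lowest and the highest of all values. It was higher with APAP than with TCE by 1.85 ± 0.43 log2 (SE; edgeR adjusted p = 0.00231).

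**Figure D3:**
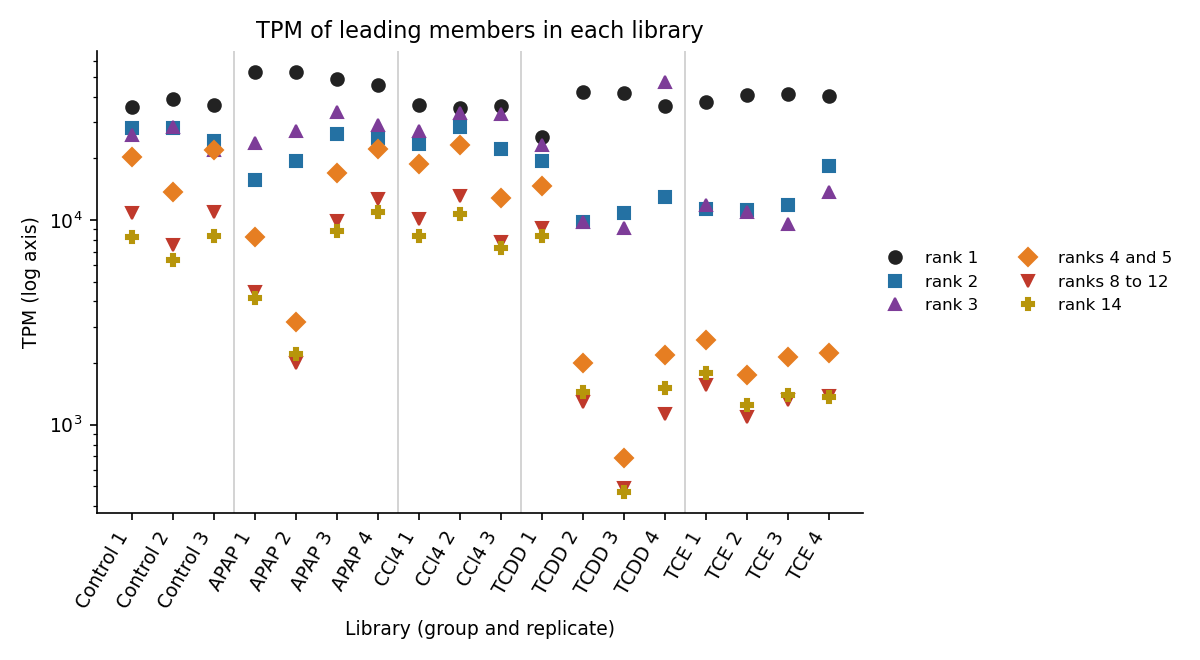
TPM per library (points, log axis) of leading members in the 5 groups. Rank 1 is highest in all 4 APAP libraries, and rank 4 is low in all TCE libraries and in 3 of 4 TCDD libraries, from 688 to 2599 TPM.

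APAP was the compound under which most members changed. Of the 100, 80 passed against Control (edgeR adjusted p under 0.05), 79 higher and 1 lower. Among all tested transcripts 45.9% passed, 19.6% higher and 26.3% lower. Over the 4 comparisons with Control the members' median SE was 0.09 to 0.10, against 0.20 to 0.21 over all tested transcripts. A member therefore passes more readily at the same fold change. More calls among the members do not by themselves mean larger changes. The members' median log2 fold change was 0.60, against -0.04 over all tested transcripts and 0.32 over those of up to 1000 bases. The Control libraries also chose the members, so counts against Control are a description. In TPM, which is scaled to the library total, APAP did not stand highest when all TPM were counted. The 92 members were at a median of 1.14 times their Control level with APAP (73 above it), 1.05 with CCl4 (59), 1.16 with TCDD (68) and 1.22 with TCE (77). TCDD without replicate 1 was at 1.22. These medians were also taken on the TPM outside the mitochondrial mRNAs and the members other than these 92. They were then 1.111 with APAP (70 above), 1.045 with CCl4 (59), 1.085 with TCDD (57) and 1.106 with TCE (68). TCDD without replicate 1 was at 1.105 (67). On that measure APAP stood highest, by a narrow margin over TCE.

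How the libraries are scaled sets the size of this rise. The fit used TMM factors, which center on the bulk of transcripts. Scaling to total counts moved the median of all tested transcripts from -0.04 to -0.35 and that of the members from 0.60 to 0.29, and 69 members then passed, 63 higher and 6 lower. Under that scaling 46.9% of all tested transcripts passed. With TMM factors the members' median lay 0.64 log2 above that of all tested transcripts, a gap that a change of scaling leaves nearly as it is.

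The members that rose most with APAP against Control were rank 33 (ENSRNOT00000042860.5, 629 bases), by 1.18 ± 0.18 log2 (SE; edgeR adjusted p = 5.57e-05), and rank 45 (ENSRNOT00000068043.3, 592 bases), by 1.10 ± 0.18 (8.59e-05). Rank 33 read 2965, 3248 and 3329 TPM in Control, 5502, 6077, 4928 and 5104 with APAP, and 2661, 2457 and 2771 with CCl4. With TCDD it read 4420, 3839, 3836 and 5939, and with TCE 4273, 4101, 3682 and 3010. CCl4 was the lowest group for this member and APAP the highest by mean, with 1 TCDD library inside the APAP range.

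Rank 45 had the same order of groups. It read 2123, 2212 and 2332 TPM in Control, 3595, 3981, 3286 and 3373 with APAP, 1827, 1727 and 1872 with CCl4, 3436, 2890, 2850 and 4133 with TCDD, and 3165, 3093, 2741 and 2297 with TCE. Neither of these members had whole-number counts, so some of their reads are shared with other transcripts.

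The member that fell with APAP was rank 73 (ENSRNOT00000071708.2, 594 bases, with whole-number counts), at -0.29 ± 0.10 log2 (SE; edgeR adjusted p = 0.0238). It read 1670, 1462 and 1757 TPM in Control and 1088, 1076, 865 and 959 with APAP. With CCl4 it read 1572, 1391 and 1580, with TCDD 1894, 2148, 2455 and 2053, and with TCE 2385, 2206, 2413 and 2446. In TPM the APAP libraries were the lowest of all and the TCDD and TCE libraries the highest, whereas on the TMM scale the APAP and Control libraries overlapped. With DESeq2 size factors in edgeR it no longer passed (adjusted p = 0.0635), nor did it in a fit of both groups alone (0.0697). It did pass with DESeq2 itself (adjusted p = 0.0397). In edgeR with scaling to total counts it passed at -0.60 log2 (adjusted p = 2.51e-05).

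Against the other compounds APAP gave a like picture in libraries that played no part in choosing the members. Against CCl4, 79 members passed (77 higher, 2 lower), and over all tested transcripts 44.9% did (19.7% higher, 25.2% lower). Against TCDD, 69 passed (68 higher, 1 lower), with 50.3% over all (21.0% higher, 29.3% lower). Against TCE, 82 passed (80 higher, 2 lower), with 47.9% over all (21.5% higher, 26.4% lower). These 82 include the 8 members of wide spread, and 74 of the other 92 passed (72 higher, 2 lower). Against CCl4 and TCDD none of the 8 passed. The members' median log2 differences were 0.38, 0.42 and 0.41, while those of all tested transcripts were -0.01, -0.10 and -0.04. The 3 comparisons share the APAP libraries.

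These splits depend on the scaling. Scaled to total counts, APAP against CCl4 gave 34 members (29 higher, 5 lower), against TCDD 40 (30 higher, 10 lower) and against TCE 58 (39 higher, 19 lower), and the medians of all tested transcripts moved to -0.31, -0.43 and -0.42. Over all tested transcripts 44.7%, 51.6% and 51.6% then passed, so the members' counts were below that share against CCl4 and TCDD and near it against TCE.

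With TMM factors, 62 members were higher with APAP than with each of the other 3 compounds, and 61 of them were also higher than in Control. These patterns were met by 15.0% and 12.7% of all tested transcripts. Rank 73 was the only member lower with APAP than with each of the 3, against 21.5% of all tested transcripts. It was lower by 0.69 ± 0.09 log2 (SE) against TCDD (edgeR adjusted p = 1.16e-05) and by 0.72 ± 0.09 against TCE (7.41e-06). Rank 66 (ENSRNOT00000014073.5, 2057 bases) was higher with APAP than with TCDD by 1.31 ± 0.12 (2.00e-07). It read 2492, 2474, 2054 and 2295 TPM with APAP, 1035, 1445, 1313 and 1194 with TCDD, and 1825, 1757 and 1640 in Control, without overlap between the 3 groups. Against CCl4 the largest difference was that of rank 33, 1.38 ± 0.18 (1.33e-05).

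Rank 63 (ENSRNOT00000059255.5, 1989 bases) went the other way between APAP and CCl4, with a log2 difference of -0.49 ± 0.08 (SE; edgeR adjusted p = 7.67e-05). It read 1261, 1342, 1248 and 1143 TPM with APAP, 2170, 2178 and 2285 with CCl4, and 1715, 1871 and 1750 in Control. In TPM every Control library thus lay between the libraries of both compounds. On the TMM scale the APAP and Control libraries overlapped, and rank 63 did not pass for APAP against Control.

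**Figure D4:**
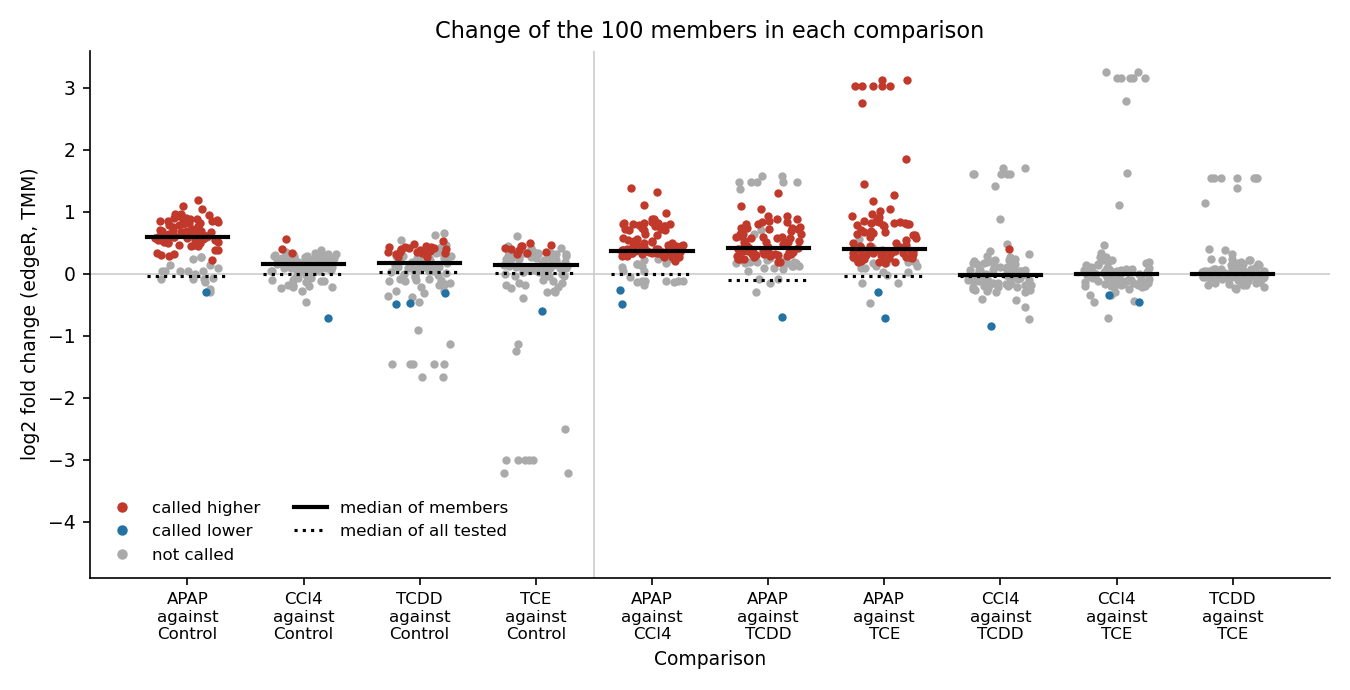
Log2 fold change of each member (points, edgeR fit with TMM factors) in the 4 comparisons with Control and the 6 between compounds, red where called higher, blue where called lower and gray otherwise, with the medians of the members (solid) and of all tested transcripts (dotted). In all 3 comparisons of APAP with another compound the members' median lies above the dotted line (0.38, 0.42 and 0.41), and the 8 members lie at -3.21 to -2.51 with TCE against Control, uncalled.

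CCl4 changed few members. Of the 100, 4 passed against Control, 3 higher and 1 lower. Over all tested transcripts 1.74% passed, 1.03% higher and 0.71% lower. Among the members 41 had an unadjusted p under 0.05. Rank 50 (ENSRNOT00000032015.5, 451 bases, with whole-number counts) rose by 0.56 ± 0.09 log2 (SE; edgeR adjusted p = 0.00508), from 2067, 2106 and 2364 TPM in Control to 3097, 2935 and 3128 with CCl4. Rank 63 rose by 0.40 ± 0.08 (0.0254) and rank 31 by 0.34 ± 0.08 (0.0414). Rank 84 (ENSRNOT00000080216.1, 1323 bases) fell by 0.71 on the log2 scale (SE 0.14, adjusted p = 0.0209), from 1600, 1695 and 1061 TPM to 838, 769 and 888.

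This count rested on single libraries. It was 1 without Control replicate 1 or 2 or without any one CCl4 library, 24 without Control replicate 3, 10 without TCDD replicate 1 and 7 without TCDD replicate 4. Over all tested transcripts 4.12% passed without TCDD replicate 1, against 1.74% with all libraries. For the other fits named here that share is not given, so their counts do not describe the members alone. Rank 50 passed without any one library (adjusted p up to 0.0498). Ranks 63 and 84 did not pass without Control replicate 1 or 2 or without any one CCl4 library (up to 0.157 and 0.139).

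With TCDD, 25 members passed against Control, 22 higher and 3 lower. Over all tested transcripts 4.35% passed, 1.49% higher and 2.87% lower. The members' median log2 fold change was 0.18, against 0.03 over all tested transcripts and 0.21 over those of up to 1000 bases. Rank 60 (ENSRNOT00000040261.2, 348 bases) rose by 0.53 ± 0.12 (SE; edgeR adjusted p = 0.0316), from 1808, 1621 and 2030 TPM to 2545, 2506, 2607 and 2740. Rank 43 (ENSRNOT00000059501.2, 456 bases, with whole-number counts) rose by 0.48 ± 0.09 (0.0214), from 2325, 2263 and 2506 TPM to 2972, 3394, 3285 and 3473. With TCE, rank 60 read 2529 to 2820 TPM and rank 43 read 3392 to 3581 TPM, also above all Control libraries.

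The members that fell with TCDD were ranks 32, 49 and 84. Rank 49 (ENSRNOT00000022095.7, 1644 bases) was at -0.47 ± 0.12 log2 (SE; edgeR adjusted p = 0.0416) and read 2305, 2361 and 1873 TPM in Control against 917, 1916, 1978 and 1525 with TCDD. Rank 32 (ENSRNOT00000028315.6, 552 bases) was at -0.31 ± 0.07 (0.0316), and rank 84 at -0.49 (0.0443). In TPM the groups overlapped for rank 49. Without TCDD replicate 1, ranks 49 and 32 no longer passed (adjusted p 0.0699 and 0.0597), whereas ranks 60 and 43 did (0.0498 and 0.0279). None of these 4 passed without Control replicate 1 or 2 (0.148 to 0.215). Without TCDD replicate 4, ranks 32, 49 and 60 did not pass (0.0537, 0.0635 and 0.0510). Rank 49 was also lost without any one CCl4 library, APAP replicate 1 or 3, or TCE replicate 1, 2 or 3 (0.0518 to 0.0610).

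Without TCDD replicate 1 the count was 18, 9 higher and 9 lower, and 9 of these were among the 25. Over all tested transcripts 1.68% passed in that fit, against 4.35% with all libraries. The 8 members described above were the main addition. Without Control replicate 1 or 2 no member passed, and without Control replicate 3, 42 did. The count was 10 to 11 without any one CCl4 library, 8 without TCDD replicate 4 and 14 without TCE replicate 3. The share over all tested transcripts is not given for these fits or for those without a Control library. Their counts therefore do not describe the members alone. Scaled to total counts 25 passed, all of them higher, against 1.7% of all tested transcripts.

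With TCE, 11 members passed against Control, 10 higher and 1 lower. Over all tested transcripts 1.16% passed, 0.54% higher and 0.619% lower. Rank 31 (ENSRNOT00000066159.3, 443 bases, with whole-number counts) rose by 0.49 ± 0.07 log2 (SE; edgeR adjusted p = 0.0184), from 3315, 3397 and 3677 TPM to 5107, 5159, 5340 and 5540. Rank 48 (ENSRNOT00000041813.5, 503 bases) rose by 0.47 ± 0.08 (0.0190), from 2149, 2079 and 2329 TPM to 3259, 3301, 3278 and 3288. The TCE libraries of both members lay above all Control libraries. Rank 66 fell by 0.60 on the log2 scale (SE 0.13, 0.0416), to 1475, 1273, 1178 and 926 TPM.

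In a fit of the TCE and Control libraries alone, 9 members passed, of which 8 were the 8 members and none was among the 11 (ranks 31, 48 and 66 had edgeR adjusted p 0.0807, 0.0948 and 0.141). The count of 11 also moved with many libraries. It was 0 without Control replicate 1 or 2 or TCE replicate 3, and 1 and 3 when TCE replicate 2 or 1 was left out. It was 6 to 7 without any one CCl4 library or without APAP replicate 1 or 3. It was 37 without Control replicate 3, 18 without TCDD replicate 4 and 39 without TCDD replicate 1. The last of these, 28 higher and 11 lower, included the 8 members. Over all tested transcripts 4.79% passed without TCDD replicate 1, against 1.16% with all libraries. Counts of the other fits in this paragraph stand without that share and do not describe the members alone. Rank 31 was lost without Control replicate 1 or 2 or TCE replicate 3 (adjusted p 0.0704 to 0.172), and rank 48 also when TCE replicate 2 was left out (0.0592). Rank 66 was lost without Control replicate 1 or 2, any one CCl4 library, APAP replicate 1, 2 or 3, TCDD replicate 3 or TCE replicate 2 or 3 (0.0514 to 0.231).

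Rank 31 was the member that passed against Control with each of the 4 compounds, as did 0.146% of all tested transcripts. It read 4483, 4927, 4238 and 4262 TPM with APAP, 4349, 3944 and 4128 with CCl4, and 3841, 4781, 4958 and 5219 with TCDD, so all 15 treated libraries lay above the 3 Control libraries. TCDD and TCE shared 10 called members, all of them higher, against 0.401% of all tested transcripts, but both comparisons use the same Control libraries. In all, 17 members passed with no compound against Control, and 3 (ranks 28, 67 and 89) passed in none of the 10 comparisons. The same held for 51.9% and 35.1% of all tested transcripts. Rank 67 (1561 bases) did not pass although its TCE libraries, at 2760, 2955, 2941 and 2641 TPM, lay above its Control libraries, at 1767, 1650 and 1803. Its TCDD libraries read 2066, 3346, 2957 and 949 TPM and so lay on both sides of Control.

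The rises with TCDD and TCE were mostly in short members. Among the 92, 58 were 1000 bases or shorter and 34 were longer. Higher calls numbered 21 and 1 in these classes with TCDD, 9 and 1 with TCE, 2 and 1 with CCl4, and 55 and 24 with APAP. The median log2 fold changes were 0.29 and 0.01 with TCDD, 0.25 and 0.06 with TCE, 0.20 and 0.05 with CCl4, and 0.63 and 0.54 with APAP. All tested transcripts of these lengths had medians of 0.21 and 0.01 with TCDD and 0.17 and -0.01 with TCE. Their medians were 0.15 and -0.03 with CCl4, and 0.32 and -0.09 with APAP. Short transcripts thus stood above long ones over the whole table, not only among the members. Over all tested transcripts of these lengths, 5.11% and 0.937% were called higher with TCDD, 1.66% and 0.371% with TCE, 1.29% and 0.993% with CCl4, and 33.7% and 17.4% with APAP. Without TCDD replicate 1 the members' counts were 8 and 1 with TCDD, 25 and 3 with TCE, and 8 and 1 with CCl4. The shares of all tested transcripts by length are not given for that fit, so these counts do not describe the members alone. The difference between the length classes was not tested.

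**Figure D5:**
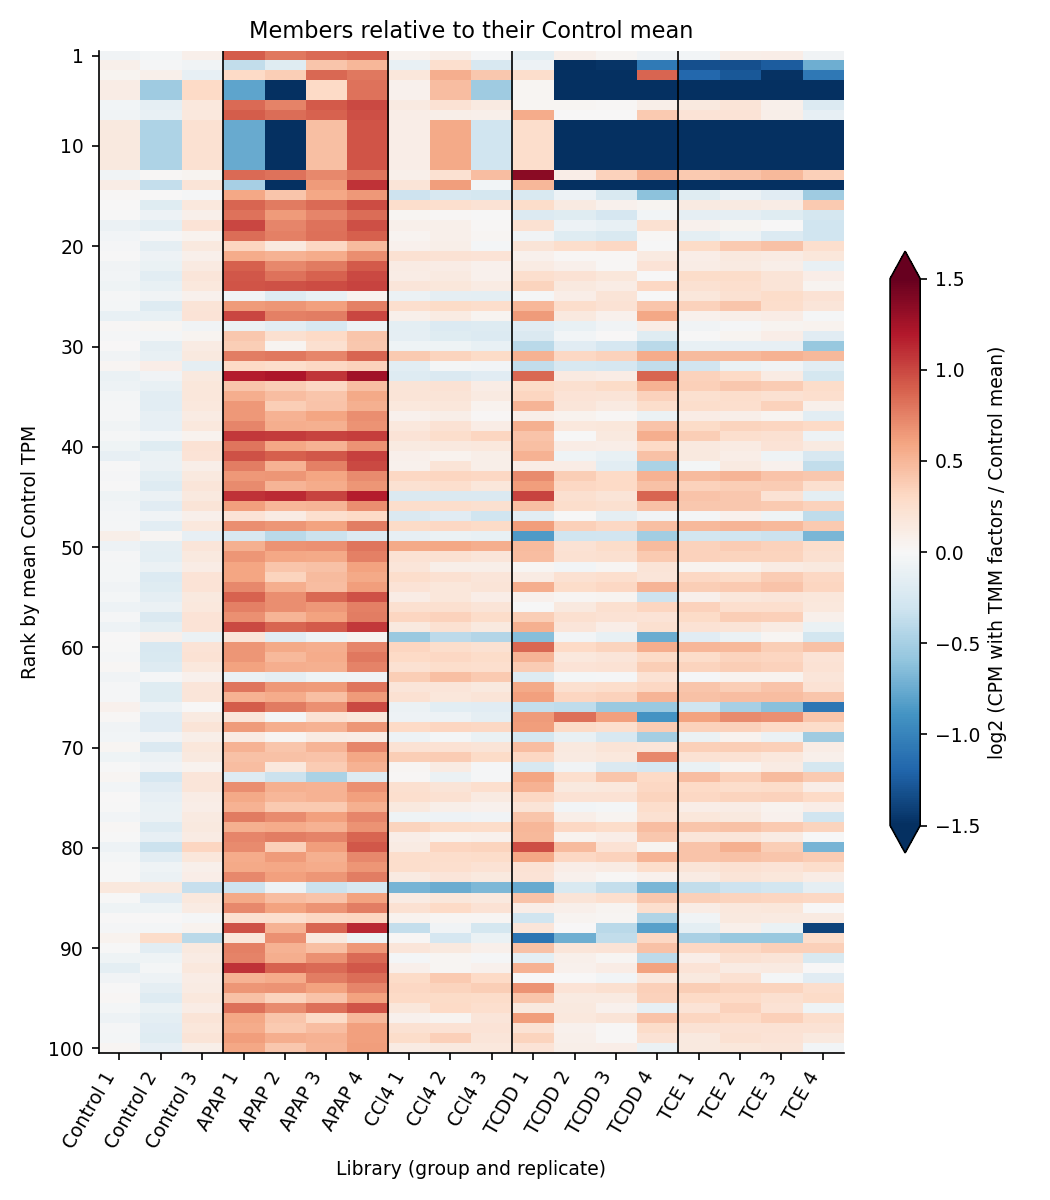
Log2 level of each member (rows, in order of rank) relative to its Control mean in the 18 libraries (columns), as CPM with TMM factors, with colors saturating at both ends of the scale bar. The 8 members form dark blue rows in TCE and in TCDD replicates 2 to 4, as do ranks 2 and 3 in part. The 8 are also dark blue in APAP replicate 2, at -2.29 to -1.53. Most other rows are red in the APAP columns.

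Among CCl4, TCDD and TCE few members differed. For CCl4 against TCDD, 2 members passed, 1 higher and 1 lower, against 1.1% of all tested transcripts (0.886% higher, 0.212% lower). Rank 45 was lower with CCl4 by 0.84 ± 0.18 log2 (SE; edgeR adjusted p = 0.0284) and rank 63 was higher by 0.40 ± 0.08 (0.0169). For CCl4 against TCE, 2 passed, both lower, against 0.929% over all (0.619% higher, 0.31% lower). Rank 73 was lower with CCl4 by 0.45 ± 0.10 (0.0413) and rank 25 by 0.35 ± 0.07 (0.0216). Rank 25 was named after its values were seen.

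These counts of 2 also moved with single libraries. Without TCDD replicate 1 they became 10 and 12, with the 8 members included in each, and without any one CCl4 library they became 0. Over all tested transcripts 0.99% and 1.89% passed without TCDD replicate 1. That share is not given for the other fits in this paragraph, so their counts do not describe the members alone. For CCl4 against TCDD the count was 4 without TCDD replicate 2 or 4 or TCE replicate 4. For CCl4 against TCE it was 5 without TCDD replicate 4, 0 without TCE replicate 2 or 3, and 1 without Control replicate 1, APAP replicate 1 or 2 or TCDD replicate 3. Ranks 45 and 63 were lost without any one CCl4 library (adjusted p up to 0.151 and 0.116), and rank 45 also without TCDD replicate 1 (0.0582). Rank 73 was lost without any one CCl4 or TCE library and without the last 4 libraries named (0.0566 to 0.245).

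Between TCDD and TCE none of the 100 members passed in the edgeR fit, nor did any other tested transcript (0.0%), while 8 members had an unadjusted p under 0.05. DESeq2 also called none of the members. The interval of 2 SE around the log2 difference stayed within 1 log2 unit of 0 for 91 of the 100 members, and within 0.5 for 82. The other 9 were the 8 members and rank 3, and their intervals reached beyond 1 only towards higher levels with TCDD. Those of the 8 included 0, and that of rank 3 ran from 0.29 to 1.98. For the 8 the direction rested on TCDD replicate 1. Without it they were at -3.62 to -2.84 log2 against Control with TCDD and at -3.21 to -2.51 with TCE. Higher levels with TCDD were then no longer seen, and no member passed between TCDD and TCE.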

How the data were processed

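The data are 18 RNA-seq libraries of primary rat hepatocytes, quantified with kallisto 0.43, per the submitters' processing notes. The annotation, the genome build and whether reads were paired are stated in no source used here. Each deposited table lists 30897 transcripts with estimated counts (reads matching several transcripts are shared among them) and TPM, both as the authors made them, 1 table per library.

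Levels and shares were taken from the deposited TPM. For tests, estimated counts were rounded, filtered with filterByExpr (16473 transcripts, on average 99.8% of counts) and scaled with TMM factors, and all 18 libraries were fitted with group as the factor (edgeR 4.0.16, robust quasi-likelihood, R 4.3.3). A transcript passed where its p, adjusted by Benjamini-Hochberg, was under 0.05 over all tested transcripts of a comparison. SE is the log2 fold change divided by the root of F. Counts were called whole within 0.000001. The fit was tested on simulated data.

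Members and lists were chosen with earlier results of these data known. Identifiers are given for ranks 1 to 3, for the largest changes past the threshold without overlap on the TMM scale (at most 2 per direction for a compound against Control, 1 for a pair), for the members at the cutoff, and, chosen after their values were seen, ranks 4 and 73. The gene and cell type lists need names and are not analysed here. Alternatives were other scalings, DESeq2 1.42.0, other filters and rank lists, replicate blocks, fits of 2 groups and each library left out.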

Additional observations from a re-analysis of the deposited data

Results flagged for a closer look

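In groups of 4 libraries, the highest or lowest value was compared with its nearest neighbour, and a gap, as a share of the whole range, above Dixon's 95% critical value was taken as standing apart. Of 63 sets, 6 did so. Chance alone gives about 1 in 20 for separate sets. These sets share values, such as rank 5 and the share of the 8 members, so the count cannot show an excess over chance. TCDD replicate 1 gave 4 of them. The 8 members held 8.33% of its TPM, against 0.431 to 1.19% in the other TCDD libraries. Mitochondrial mRNAs held 8.99%, against 2.35 to 2.69%. The member at rank 5 read 14738 TPM, against 688 to 2186, and the member at rank 48 read 2593 TPM, against 3057 to 3099. TCE replicate 4 gave the other two. The 100 members held 36.7% of its TPM, against 36.3 to 36.4% in the other TCE libraries, and the member at rank 2 read 18286 TPM, against 11166 to 11828.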

How the results depend on the processing

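No named member's log2 fold change changed sign under any alternative. Splits and medians did: without TCDD replicate 1, CCl4 against TCE went from 0 higher and 2 lower to 10 and 2, and TCDD against Control from 22 and 3 to 9 and 9. The members' median went from -0.02 to 0.01 for CCl4 against TCDD and from 0.01 to -0.05 for TCDD against TCE. Counts below are of the 100 members, beside the reported count. The share of all tested transcripts called moved as well. For TCE against Control it was 1.16% as reported, 4.79% without TCDD replicate 1 and 2.46% with total counts. Where no such share stands beside a count, the count is not a result about the members alone. With each library left out in turn, APAP gave 75 to 82 against Control (80), 70 to 81 against CCl4 (79), 65 to 86 against TCDD (69) and 72 to 88 against TCE (82). The ranges were 1 to 24 for CCl4 against Control (4), 0 to 42 for TCDD (25), 0 to 39 for TCE (11), 0 to 10 and 0 to 12 for CCl4 against TCDD and against TCE (2 each) and 0 throughout for TCDD against TCE. DESeq2 gave 17, 39 and 39 for CCl4, TCDD and TCE against Control and 5 and 15 for the CCl4 pairs with TCDD and TCE. Without a low-count filter the 3 comparisons with Control gave 2, 13 and 7. Total counts gave 2 for CCl4 and 37 for TCE against Control, and 34 and 40 for APAP against CCl4 and TCDD. Total counts without the mitochondrial mRNAs and the 8 members, chosen after seeing the data, gave 36, 42 and 53 for APAP against CCl4, TCDD and TCE, and 30 for TCE against Control. DESeq2 size factors in edgeR gave 7 for TCE against Control and 1 for CCl4 against TCE. Fits of the 2 compared groups gave 9 for TCE against Control (0 of them among the 11), 0 for TCDD against Control and 0 and 17 for the CCl4 pairs with TCDD and TCE. The top 100 by CPM gave 1 for each of the CCl4 pairs. The cause of these moves was not tested.

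No pairing by the numbers in titles or table names was seen. Of same-numbered pairs, 2 of 33 and 2 of 32 had deviations correlated over 0.1, and of the others 3 of 96 and 3 of 97. The median correlations were -0.0072 and -0.0198 for same-numbered pairs and 0.0039 and 0.0075 for the others. Shared cultures or batches were not tested. A replicate block by title number gave 0 for TCDD and 1 for TCE against Control. A block by table number gave 17 and 9, and 1 and 0 for the CCl4 pairs with TCDD and TCE. The members' Control share of 42.4% was 34.4% for the top 50, 51.8% for the top 200, 37.6% for the top 100 by CPM, and 37.7% for the 92 outside the mitochondrial mRNAs and the 8. For single members, 489 of 588 alternative values stayed on their side of the threshold and 99 lost the call, over 21 results. Depth was at least 808 counts for each member and library.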
